A study of Rattus norvegicus with 12 samples.

Results

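Gem, Rhob and Rnd3 encode small GTPases, and Arhgap22, Arhgef26 and Rapgef5 encode proteins that switch such GTPases on or off. These 6 genes, of 10261 genes tested, are described here in cultured rat astrocytes, taken fresh from the optic nerve head, where the axons of retinal ganglion cells gather to leave the eye. Cultures given epidermal growth factor (EGF) for 4 h and cultures given EGF for 12 h each had controls of their own. There were 3 arrays in each of the 4 groups. No strain, age, sex or EGF dose is given in the labels, and whether replicates are separate cultures is not stated, so the spread between them may be technical. The 6 genes were chosen by their measured EGF responses at 4 h and 12 h and by the difference between the controls in these same arrays. Their differences are therefore given as descriptions, with no test. They carry 9 of the 18625 tested probe sets (the groups of probes that report 1 transcript): 3 for Rnd3, 2 for Arhgef26 and 1 for each other gene. Each gene is led by its probe set with the highest mean signal over the 12 arrays, and all 9 passed the filter on dim probe sets.

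Small GTPases act as switches that are on when bound to GTP and off when bound to GDP. Guanine nucleotide exchange factors (GEFs) load GTP, and GTPase activating proteins (GAPs) speed its hydrolysis. Through them cells set the actin cytoskeleton, adhesion, migration and growth signalling, and in cultured astrocytes they bear on cell shape. The roles given below are known mainly from human and mouse cells. Rhob is a short-lived GTPase found on endosomes. Rnd3 hydrolyses no GTP, so it stays on, and loosens actin stress fibres. Gem belongs to the RGK group, which dampens voltage-gated calcium channels. Arhgap22 is a GAP for Rac, Arhgef26 (SGEF) a GEF for RhoG, and Rapgef5 (MR-GEF) a GEF for Rap proteins.

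Promoter windows from 250 bases before to 50 bases after the transcription start were taken from RefSeq on the rat build GRCr8 and matched for 5 of the 6 genes, all but Gem. The windows of Rnd3 and Rhob are shown because these 2 GTPase genes moved in opposite directions with EGF. Capitals mark every match to 6 motifs, searched on both strands: the CArG box bound by serum response factor, the cyclic AMP response element TGACGTCA and its shorter core TGACG, the AP-1 site TGANTCA, the CCAAT box CCAAT and the TATA box TATAAA. The core lies within the full element.
Rnd3 (chr3:55998445-55998744, minus strand): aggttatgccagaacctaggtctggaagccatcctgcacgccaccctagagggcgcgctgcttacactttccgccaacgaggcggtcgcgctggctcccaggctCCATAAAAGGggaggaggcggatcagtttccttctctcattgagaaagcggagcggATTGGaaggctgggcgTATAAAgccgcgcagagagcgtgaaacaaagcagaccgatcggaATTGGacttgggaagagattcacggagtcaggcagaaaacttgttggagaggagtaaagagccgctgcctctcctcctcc
Rhob (chr6:37085155-37085454, minus strand): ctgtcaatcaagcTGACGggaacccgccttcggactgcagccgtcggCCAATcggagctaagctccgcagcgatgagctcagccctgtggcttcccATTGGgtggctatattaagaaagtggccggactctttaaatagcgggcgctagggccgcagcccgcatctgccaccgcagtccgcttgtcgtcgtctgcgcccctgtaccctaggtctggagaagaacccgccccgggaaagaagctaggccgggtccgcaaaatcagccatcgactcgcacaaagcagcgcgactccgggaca
The Rnd3 window held a CArG box 146 to 137 bases before the start, a TATA box 74 to 69 bases before it and 2 CCAAT boxes. A CArG box was present in 1.64% and a TATA box in 14.2% of the 33469 windows in the table. The Rhob window held a TGACG core 237 to 233 bases before the start and 2 CCAAT boxes. Of all windows, 21.2% hold the TGACG core and 37.5% a CCAAT box, in any number. Of the other 3 windows, that of Rapgef5 held a CCAAT box, and those of Arhgap22 and Arhgef26 held none of the 6 motifs. The GC content was 57% for Rnd3, 61.7% for Rhob, 69% for Arhgef26, 70.3% for Arhgap22 and 77% for Rapgef5, against a median of 51.7% over all windows. These matches describe letters in the windows and are not evidence of binding.

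The arrays fall into 4 sets by their time and their control probe sets, and the larger set at each time holds both EGF and control arrays. At 4 h, the replicate 3 pair had a mean signal of the added hybridisation controls of 21217 with EGF and 23645 in the control, against at most 110.8 on the other 10 arrays. The actin 3′ to 5′ signal ratio, which rises as labelled RNA falls short of the 5′ end, was 18.1 and 20.5 on EGF replicates 1 and 2 at 12 h and 11.1 to 21.7 on the 12 h controls. It was 1.24 on EGF replicate 3 at 12 h and 1.20 to 1.61 on the 4 h arrays. Markers of the labelled cell type were mixed. Vim and Gja1 averaged 72429 and 67135 signal units over the 12 arrays, while Gfap, Aqp4, Slc1a2, Aldh1l1 and Fabp7 lay below the filter, Gfap at a mean of 185.4. Fibroblast and meningeal markers were bright, with Col1a1 at 50943 and Col3a1 at 88896. In a culture, fewer cells of a kind and less RNA per cell cannot be told apart. Arrays of 3 a group limit the precision, and the median standard error (SE) of a log2 difference was 0.201 over the tested genes.

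With 4 h of EGF, Arhgap22 and Gem were far above control, Rnd3 and Arhgef26 were below it, and Rhob and Rapgef5 overlapped with it. The EGF arrays all lay above the control arrays for 2 of the 6 genes, as for 19.4% of all genes tested, and all below for 2, as for 33.3%. With 12 h of EGF, the arrays did not overlap for any of the 6: Arhgap22, Gem and Rhob lay above, as 20.9% of all genes did, and Rnd3, Arhgef26 and Rapgef5 lay below, as 31.8% did. These counts follow from how the genes were chosen.

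**Figure D1:**
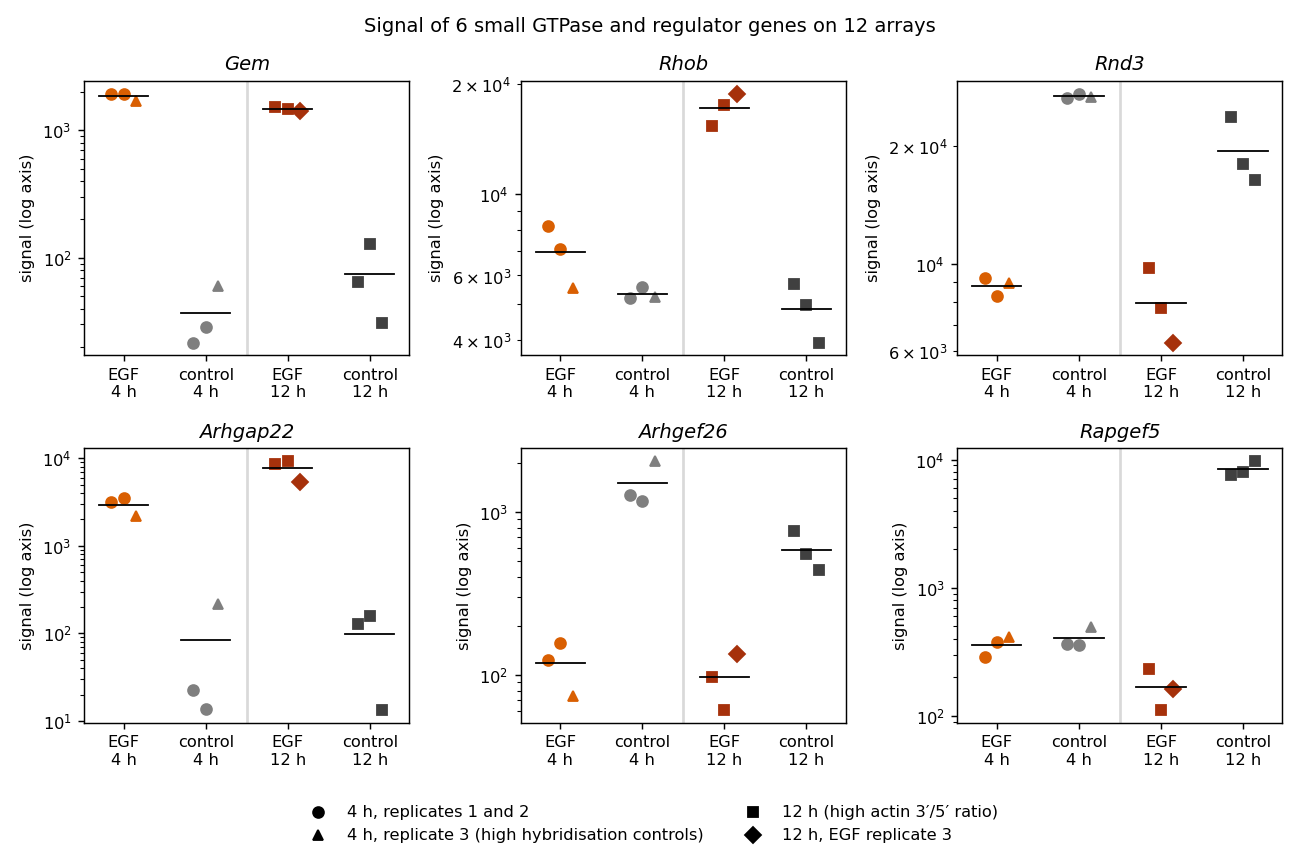
Signal (log axis) of the leading probe set of each of the 6 genes on the 12 arrays, by group, with the group mean as a line and the array set as the marker shape. Gem and Arhgap22 are low in both controls and at 1415.2 or more and 2205.2 or more on every EGF array. Rapgef5 is high in the 12 h controls, at 7638.6 to 9769.9.

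Gem, the RGK GTPase, was low in the controls and far above them with EGF at both times. No detection calls were used, so whether the control signals are background was not tested. Its signal was 1942.2, 1914.7 and 1682.7 on the 4 h EGF arrays, against 21.5, 28.8 and 60.2 on the 4 h control arrays. At 12 h it was 1517, 1471.6 and 1415.2 with EGF, against 64.6, 128.2 and 30.8 in the controls. All 6 EGF arrays lay above all 6 controls, and the 3 EGF arrays at 12 h lay below the 3 at 4 h. The log2 difference, on the scale of log2(signal + 24.4), was 4.98 ± 0.36 at 4 h and 4.04 ± 0.36 at 12 h (± SE, n = 3 arrays a group). Each SE of a log2 difference rests on an estimate of the spread that all 4 groups share, so it is the same at both times. Because the control signals lie near the offset, the size of the log2 difference depends on it. With an offset of 96.8 the differences were 3.87 and 3.23. Within the replicate 1 and 2 arrays at 4 h the difference was 5.30, and in the replicate 3 pair 4.33.

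Rhob, the endosomal GTPase, overlapped with its controls at 4 h and was well above them on all 3 EGF arrays at 12 h. Its signal at 4 h was 8198.3, 7098.1 and 5536 with EGF, against 5216.3, 5581.4 and 5248.3 in the controls. EGF replicate 3 at 4 h lay within the control range, and replicates 1 and 2 lay above it. At 12 h the signal was 15358.7, 17496.9 and 18848.4 with EGF, against 5695.5, 4979.3 and 3925.8 in the controls. The EGF mean of 17235 ± 1760 was 3.54 times the control mean of 4867 ± 890 (SD, n = 3 each), and the 2 groups did not overlap. The log2 difference was 0.36 ± 0.17 at 4 h and 1.83 ± 0.17 at 12 h. At 4 h it was 0.50 within replicates 1 and 2 and 0.08 in the replicate 3 pair. The 12 h EGF level was the highest of the 4 groups, and the other 3 groups overlapped.

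Rnd3, the GTPase that loosens stress fibres, was lower with EGF at both times and on all 3 of its probe sets. The leading probe set gave 9230.8, 8291.3 and 8980.2 on the 4 h EGF arrays, against 26555, 27296 and 26725 on the 4 h control arrays. At 12 h it gave 9819.7, 7727.6 and 6305.8 with EGF, against 23824, 18001 and 16458 in the controls. The EGF and control arrays were apart at both times, and the EGF arrays of the 2 times overlapped. The log2 difference was -1.60 ± 0.17 at 4 h and -1.29 ± 0.17 at 12 h. The control mean was 19428 ± 3885 at 12 h and 26859 ± 388 at 4 h (SD, n = 3 each).

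The second and the third probe sets of Rnd3 gave differences of -1.57 ± 0.27 and -1.65 ± 0.20 at 4 h, close to the leading one. At 12 h the third gave -1.17 ± 0.20, and its arrays did not overlap. The second gave -0.74 ± 0.27 at 12 h, and its groups overlapped. Its signal there was 2409, 1938.2 and 5297.8 with EGF, against 5379.4, 5320.7 and 4067.6 in the controls. EGF replicate 3, the 12 h array with the low actin ratio, is the high one. Without it, within the 2 EGF and 3 control arrays of high actin ratio, the difference of this probe set was -1.17 and that of the leading one -1.14. In the 12 h controls the second probe set averaged 4923 ± 741, against 22665 ± 1423 in the 4 h controls, a log2 difference of -2.21 ± 0.27, while the leading probe set differed by -0.48 ± 0.17. How far RNA quality sets this gap between probe sets of 1 gene was not tested.

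**Figure D2:**
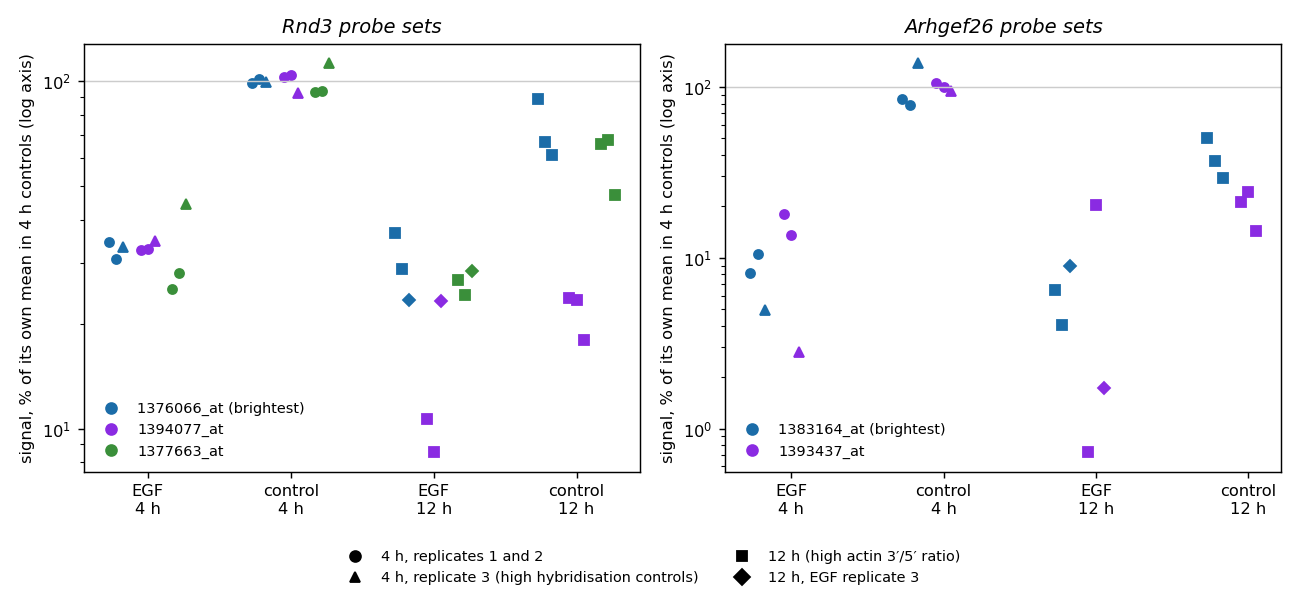
Signal of each probe set of Rnd3 (left) and Arhgef26 (right) on the 12 arrays, as a percentage of its own mean in the 4 h controls (log axis), with the array set as the marker shape. All probe sets are lower with EGF at 4 h, while the second probe set of each gene (purple) is the lowest one in the 12 h controls and overlap between EGF and control at 12 h.

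Arhgap22, the Rac GAP, was low in both controls and far above them with EGF at both times. Its signal was 3145.3, 3512.2 and 2205.2 on the 4 h EGF arrays, against 22.6, 13.7 and 213.6 on the 4 h control arrays. At 12 h it was 8657.7, 9314.7 and 5378 with EGF, against 127.6, 155.9 and 13.2 in the controls. All 3 EGF arrays at 12 h lay above all 3 at 4 h, and the controls of the 2 times overlapped. The log2 difference was 5.28 ± 0.65 at 4 h and 6.23 ± 0.65 at 12 h, and with an offset of 96.8 it was 4.23 and 5.38. It was 6.31 within replicates 1 and 2 at 4 h and 3.23 in the replicate 3 pair, whose control is the one at 213.6. Within the larger set at 12 h it was 6.48.

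Arhgef26, the RhoG GEF, was lower with EGF at both times, and its own controls were lower at 12 h than at 4 h. Its leading probe set gave 122.8, 157.3 and 73.7 on the 4 h EGF arrays, against 1269.9, 1170 and 2061 on the 4 h control arrays. At 12 h it gave 96.5, 60.5 and 133.6 with EGF, against 759, 551.6 and 438.5 in the controls. The EGF arrays of the 2 times overlapped, and the 12 h controls all lay below the 4 h controls. The log2 difference was -3.42 ± 0.36 at 4 h and -2.34 ± 0.36 at 12 h. It was -2.93 within replicates 1 and 2 at 4 h and -4.41 in the replicate 3 pair. The second probe set gave -3.18 ± 0.70 at 4 h. At 12 h it gave -1.86 ± 0.70 with groups that overlapped, since EGF replicate 2 read 273.8 and the controls 192.1 to 325.3.

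Rapgef5, the Rap GEF, was low in 3 of the 4 groups and high in the 12 h controls. Its signal was 289, 378.3 and 413.2 on the 4 h EGF arrays, against 364.1, 358.4 and 494.9 on the 4 h control arrays, and these groups overlapped. At 12 h it was 230.9, 110.9 and 163.8 with EGF, against 7638.6, 8046.4 and 9769.9 in the controls. The 12 h control mean of 8485 ± 1131 was 20.9 times the 4 h control mean of 405.8 ± 77.2 (SD, n = 3 each). The log2 difference of EGF from control was -0.16 ± 0.25 at 4 h and -5.50 ± 0.25 at 12 h, and that of the 12 h from the 4 h controls was 4.31 ± 0.25. The 12 h EGF arrays also lay below all 3 EGF arrays of 4 h. Time in culture, the experiment and the array set change together between the 2 controls and cannot be told apart. At 12 h all 3 controls and EGF replicates 1 and 2 share a set, and within it the EGF difference was -5.51.

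Beside this, the fibroblast marker Dcn, a matrix proteoglycan, had a mean of 2896.8 with EGF at 12 h and 24104 in the 12 h controls, against 2819 with EGF at 4 h and 3897.7 in the 4 h controls. The brighter markers of that list did not share this shape. Col1a1 differed by -1.10 between the 12 h and 4 h controls and by -0.06 with EGF at 12 h. Col3a1 differed by 0.03 and -0.47. Of the 6 fibroblast and meningeal markers, all tested, 5 were lower with EGF at 12 h and 2 at 4 h at an adjusted p under 0.05 (limma), and 2 were higher and 1 lower in the 12 h than in the 4 h controls. Of all genes tested, 24.2% were lower with EGF at 12 h and 19.6% at 4 h. Between the controls, 28.4% of all genes were higher and 16.6% lower at 12 h. The summed signal of these markers ran from 114385 to 182984 with EGF at 12 h and from 207612 to 248351 in the 12 h controls. It ran from 207854 to 223058 with EGF at 4 h and from 240886 to 272274 in the 4 h controls. Some markers of other cell types moved too, by the same test. Of 3 tested oligodendrocyte markers, 1 was higher in the 12 h controls, Cnp by 0.95, while Mbp differed by -0.43. With EGF at 12 h 2 of them were lower, Cnp by 0.97 and Mbp by 1.24. Of 5 tested astrocyte markers, 1 was lower with EGF at 12 h, Glul by 1.28, and 0 were higher. Of 3 tested microglia markers, 1 was higher, Cd68 by 3.70, and 0 were lower. The only endothelial marker tested, Tek, was lower by 1.18. Of all genes, 16.5% were higher with EGF at 12 h. The part of any of these cell types in the Rapgef5 difference was not tested.

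Between the controls, Rapgef5 arrays lay above at 12 h without overlap, as for 39.4% of all genes, and those of Rnd3 and Arhgef26 lay below, as for 23.4%. The other 3 genes overlapped between the controls. The log2 differences of the 12 h from the 4 h controls were 0.62 ± 0.36 for Gem, -0.15 ± 0.17 for Rhob, -0.48 ± 0.17 for Rnd3, 0.42 ± 0.65 for Arhgap22 and -1.32 ± 0.36 for Arhgef26. The median over all genes was 0.17. The EGF differences at 12 h are set against these later controls.

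**Figure D3:**
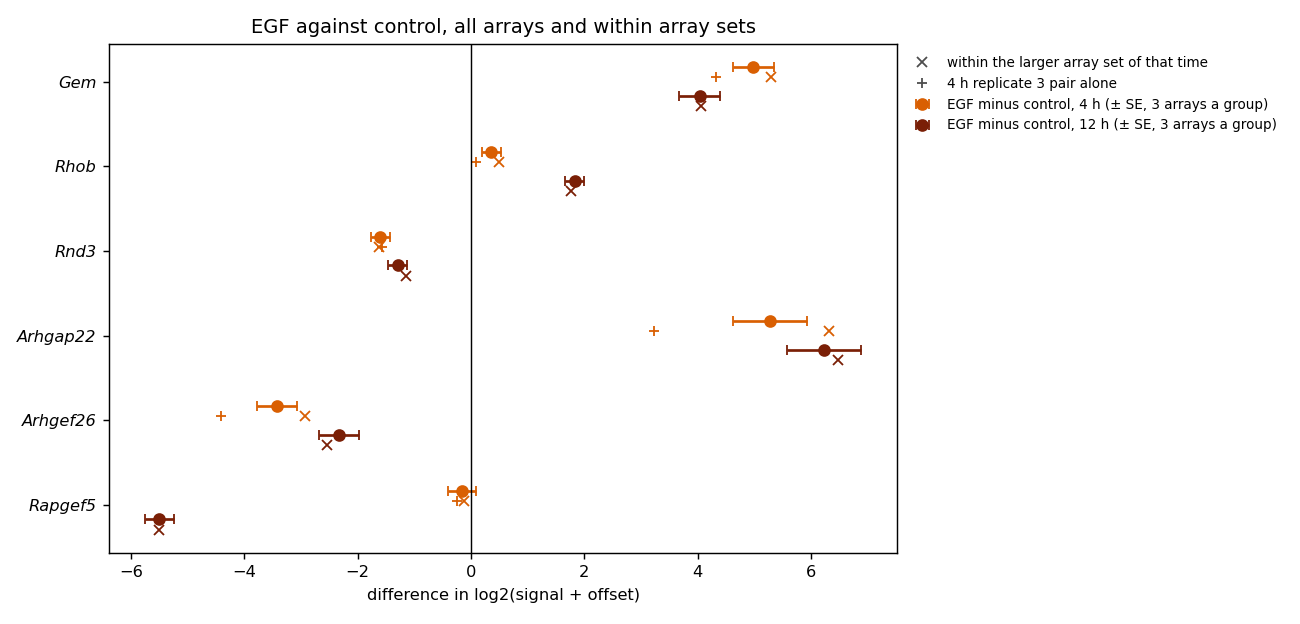
Difference of EGF from control in log2(signal + 24.4) for the 6 genes at 4 h and 12 h, as points with SE. Each group has 3 arrays, and the SE uses a spread estimated over all 12 arrays. Crosses mark the differences within the larger array set of that time, and plus signs the 4 h replicate 3 pair. Gem, Arhgap22 and Rhob are above 0 and Rnd3 and Arhgef26 below 0 at both times, and Rapgef5 is near 0 at 4 h (-0.16) and at -5.50 at 12 h.

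Over the 12 arrays the 6 profiles fell into related shapes. Pearson's r of the log2 signals was 0.96 between Gem and Arhgap22, 0.95 between Rnd3 and Arhgef26 and -0.94 between Gem and Rnd3. Rhob correlated at 0.82 with Arhgap22, and Rapgef5 at -0.67 with Rhob to 0.48 with Rnd3. These values mainly restate the 4 group means, which the 12 arrays share. Among the other genes, the 3 with the highest r to Gem were Baiap2 (0.991), which links Rac and Cdc42 to membrane protrusion, Tnfaip8l3 (0.985) and C9h6orf141 (0.983). Nearest to Rhob were Rrbp1 (0.969), the GEF gene Farp1 (0.964) and the glutathione synthetase gene Gss (0.963). Nearest to Arhgap22 were the integrin gene Itga6 (0.971), Wnt2 (0.969) and Ttc7a (0.966). Nearest to Rnd3 were the kinase gene Stk17b (0.974), Zc2hc1a (0.972) and Fmo4 (0.972), and nearest to Arhgef26 were Smad9 (0.973), Nudt2 (0.968) and again Zc2hc1a (0.967). Nearest to Rapgef5 were Reps2 (0.988), Adam22 (0.987) and Smoc2 (0.983). Reps2 averaged 377.6 with EGF at 12 h and 6828.4 in the 12 h controls, against 544.5 with EGF at 4 h and 924.7 in the 4 h controls.

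The rest of the pathway was counted in 7 lists that leave out the 6 genes. Of 281 listed genes, 236 were on the array and 191 passed the filter. With 4 h of EGF, 36 of the 191 rose and 35 fell at an adjusted p under 0.05 (18.8% and 18.3%), against 12.8% and 19.6% of all genes tested. With 12 h of EGF, 43 rose and 38 fell (22.5% and 19.9%), against 16.5% and 24.2%. Their median log2 difference was -0.10 at 4 h and -0.02 at 12 h, against -0.17 and -0.09 over all genes. In the 12 h controls 68 were higher and 31 lower than in the 4 h controls (35.6% and 16.2%), against 28.4% and 16.6% of all genes. The difference between the EGF effects at 12 h and 4 h was above 0 for 15 and below 0 for 17 (7.85% and 8.9%), against 6.55% and 7.45%. Those last counts depended on the arrays used, and without EGF replicate 3 at 12 h they were 26 and 16.

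**Figure D4:**
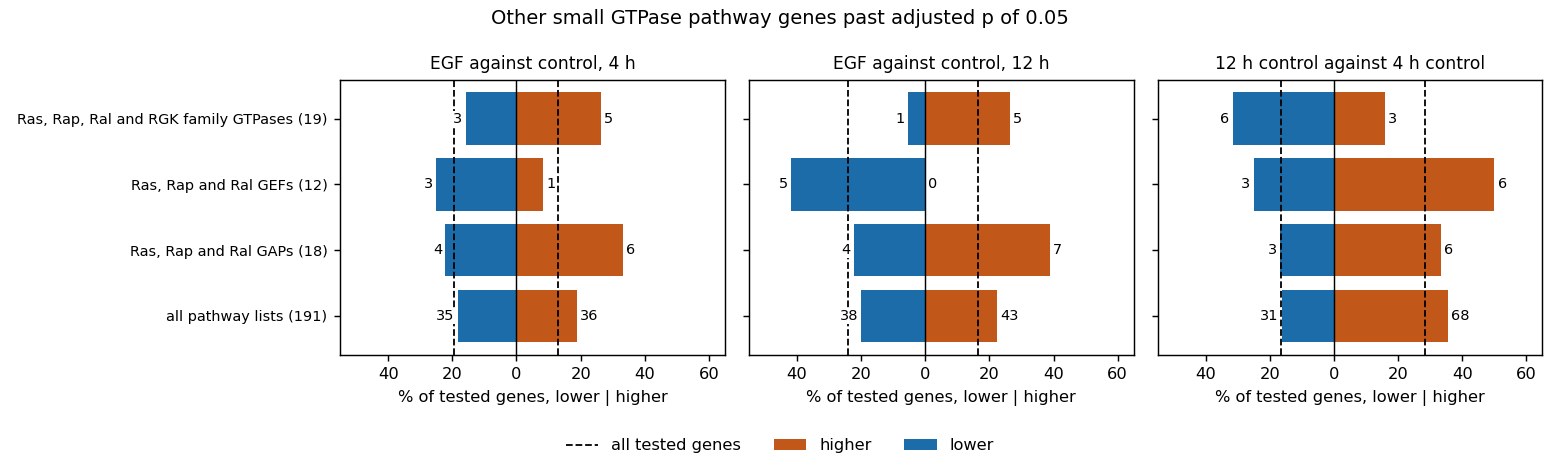
Percentage of the tested genes of 3 pathway lists and of all 7 together (number tested in brackets) that were higher (right) or lower (left) at an adjusted p under 0.05 in 3 comparisons, with counts beside the bars and the share of all 10261 tested genes as dashed lines. At 12 h the Ras, Rap and Ral GEFs have 5 lower and 0 higher genes of 12 (41.7% and 0%), against 24.2% and 16.5% of all genes.

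Among the GTPases themselves, Rhou, an atypical GTPase, rose by 2.27 ± 0.23 at 4 h (adjusted p = 1.01e-05) and by 1.15 ± 0.23 at 12 h (adjusted p = 0.00165). Rhobtb3 fell by 1.25 ± 0.17 at 4 h (adjusted p = 0.000122) and by 0.99 ± 0.17 at 12 h (adjusted p = 0.000543). Rhobtb1 fell by 2.05 ± 0.29 at 4 h (adjusted p = 0.000144) and by 2.61 ± 0.29 at 12 h (adjusted p = 1.23e-05). Of 19 Ras, Rap, Ral and RGK genes, 5 rose and 3 fell at 4 h, and 5 rose and 1 fell at 12 h, with medians of 0.07 and 0.28. The shares were 26.3% and 15.8% at 4 h, against 12.8% and 19.6% of all genes. At 12 h they were 26.3% and 5.26%, against 16.5% and 24.2%. Ralb rose by 1.45 ± 0.14 at 4 h (adjusted p = 5.66e-06) and by 0.85 ± 0.14 at 12 h (adjusted p = 0.000347). Its relative Rala rose by 0.42 ± 0.13 at 4 h (adjusted p = 0.0285) and by 1.06 ± 0.13 at 12 h (adjusted p = 3.75e-05). Rasl12 fell by 1.79 ± 0.48 at 4 h (adjusted p = 0.0127), a call that ended without EGF replicate 2 (0.0522) or control replicate 2 (0.0513) of that time. Rasl11b fell by 1.05 ± 0.30 at 4 h (adjusted p = 0.018) and by 1.18 ± 0.30 at 12 h (adjusted p = 0.0074).

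Among the exchange factors, Dock5, a Rac GEF, rose by 1.29 ± 0.12 at 4 h (adjusted p = 5.77e-06). Farp1 rose by 2.33 ± 0.15 at 12 h (adjusted p = 7.9e-08), with a mean of 13487 with EGF and 2651.4 in the controls, and its second probe set gave 2.64. Ect2, a GEF of cell division, fell by 1.38 ± 0.26 at 4 h (adjusted p = 0.00167) and fell by 2.27 ± 0.26 at 12 h (adjusted p = 2.09e-05). Of 12 Ras, Rap and Ral GEFs, the class of Rapgef5, 1 rose and 3 fell at 4 h (8.33% and 25%), against 12.8% and 19.6% of all genes. At 12 h 0 rose in limma, also at an unadjusted p under 0.05, and 5 fell (41.7%), with a median of -0.33. Over all genes, 16.5% rose and 24.2% fell at 12 h. Between the controls, 6 of the 12 were higher and 3 lower at 12 h (50% and 25%), against 28.4% and 16.6% of all genes. The EGF effects at 12 h and 4 h differed for 0 of the 12 at an adjusted p under 0.05. Rasgrp3 fell by 2.60 ± 0.53 at 4 h (adjusted p = 0.0024) and fell by 2.85 ± 0.53 at 12 h (adjusted p = 0.000882). Ralgps2 rose by 1.54 ± 0.42 at 4 h (adjusted p = 0.0153), and the call ended without EGF replicate 3 (0.0578) or control replicate 2 (0.0509) of that time.

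Among the negative regulators, Stard13, a GAP, rose by 2.23 ± 0.14 at 4 h (adjusted p = 1.38e-07) and by 1.04 ± 0.14 at 12 h (adjusted p = 7.97e-05). Arhgap18 fell by 2.27 ± 0.22 at 4 h (adjusted p = 5.1e-06) and fell by 3.03 ± 0.22 at 12 h (adjusted p = 2.1e-07). Of 18 Ras, Rap and Ral GAPs and genes with related domains, 6 rose and 4 fell at 4 h, and 7 rose and 4 fell at 12 h, with medians of 0.12 and 0.41. The shares were 33.3% and 22.2% at 4 h, against 12.8% and 19.6% of all genes. At 12 h they were 38.9% and 22.2%, against 16.5% and 24.2%. Rap1gap2, a GAP for Rap, rose by 2.99 ± 0.24 at 4 h (adjusted p = 1.14e-06) and by 3.65 ± 0.24 at 12 h (adjusted p = 1.03e-07). The Ras GAP gene Rasa1 rose by 2.94 ± 0.19 at 12 h (adjusted p = 8.04e-08), with a second probe set at 2.71. The Ral GAP subunit genes moved less: Ralgapb fell by 0.56 ± 0.14 at 4 h (adjusted p = 0.00747). Ralgapa1 fell by 0.75 ± 0.15 at 12 h on its brightest probe set (adjusted p = 0.0015), but its other probe sets gave 0.64 and 0.19, so that the probe sets disagree.

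Among the effectors, Baiap2, also the gene nearest to Gem above, rose by 3.53 ± 0.16 at 4 h (adjusted p = 8.02e-09) and by 2.58 ± 0.16 at 12 h (adjusted p = 8.28e-08). Its other 2 probe sets gave 2.55 and 1.96 at 4 h. Cdc42ep3, a Cdc42 effector, fell by 1.88 ± 0.23 at 4 h (adjusted p = 4.21e-05). Pak1, a kinase activated by Rac and Cdc42, fell by 1.26 ± 0.13 at 12 h (adjusted p = 7.47e-06), and its second probe set gave -1.42. The leading probe set of Pak1 fell by 0.79 ± 0.13 at 4 h (adjusted p = 0.000582). Across the 7 lists, 23 of the 191 genes rose and 18 fell at both times. Of all 10261 genes tested, 738 rose and 1230 fell at both times (7.19% and 12%), and each time had its own control arrays.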

How the data were processed

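Total RNA, biotin labelled, was measured on 12 Affymetrix 1-colour arrays, and groups and replicate numbers come from the sample titles. The sample descriptions read as control for all samples, so the groups rest on the titles alone. The deposited values are the intensity (signal) of 31099 probe sets on a linear scale. MAS5 is named in the submitters' processing notes as the authors' software, and no version is given. Leaving out 2% at each end, the mean was 1500.456 to 1500.562 on every array, so nothing was rescaled. No detection calls were used. The 57 control probe sets and 12417 probe sets with a mean signal under the 40th percentile (215.4) were left out, which left 18625. Before log2, 24.4 (the 10th percentile over all arrays) was added. limma 3.58.1 in R 4.3.3 fitted the 4 group means over 12 arrays with an intensity trend (8 residual degrees of freedom), two-sided, with Benjamini-Hochberg adjustment over all tested probe sets at 0.05. The fit was tested on simulated data. A gene is represented by its brightest tested probe set. Platform annotation gave 20832 probe sets 1 symbol, 436 several and 9831 none, and 1 listed symbol was matched through a synonym. Figures were drawn with matplotlib 3.10.9.

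The 6 genes, the 7 pathway lists, the array sets and the alternatives were chosen with earlier results of these data known. Named pathway genes are those with the smallest p in each direction in each list at each time. Counts for 4 of the lists are not reported here. Likeness is Pearson's r over the 12 arrays, for the 3 nearest genes. Array sets were parted by time, by hybridisation controls averaging over 1000 and by actin ratios over 5. Pairing was checked on deviations from group means: same-numbered EGF and control arrays correlated at 0.121, 0.150 and 0.376 at 4 h, so these numbers were taken to pair the arrays there. Unlike numbers within that set were as close (EGF 1 with control 2 at 0.142, EGF 2 with control 1 at 0.138), so the check does not part the number from the array set. At 12 h same-numbered arrays correlated at 0.083, -0.111 and -0.103, and the numbers do not pair. The main fit has no term for pairing. The replicate block goes by number at both times, so at 12 h, and for the difference between the times, it blocks arrays that were not found to pair. Alternatives covered the offset, filter, scaling, trend, arrays used, replicate block, array set, probe set choice and each array left out.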

Additional observations from a re-analysis of the deposited data

Results flagged for a closer look

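The EGF effects at 12 h and 4 h of 7 of the 21 named pathway genes differed by limma's test of the difference itself. The effect was larger at 12 h for Farp1, with a difference of 1.44 ± 0.21 (adjusted p = 0.000773), and for Rasa1, with 1.27 ± 0.26 (adjusted p = 0.00782). It was also larger for Rala, with 0.64 ± 0.19 (adjusted p = 0.0428). The effect was smaller at 12 h for Stard13, with a difference of -1.19 ± 0.20 (adjusted p = 0.00206), for Rhou, with -1.12 ± 0.33 (adjusted p = 0.042), and for Baiap2, with -0.95 ± 0.23 (adjusted p = 0.0181). It was smaller for Dock5 as well, with -0.58 ± 0.18 (adjusted p = 0.0471). Of 23 alternatives, applied to these differences after the data were seen, all kept the calls of Farp1, Rasa1 and Stard13, and 21 kept that of Baiap2, which ended without EGF replicate 1 at 4 h (adjusted p = 0.0544) or control replicate 2 at 12 h (0.0528). Most ended the others: the calls held in 7 for Dock5, 8 for Rala and 9 for Rhou, with adjusted p up to 0.119, 0.102 and 0.109, and no direction turned. With the replicate block the adjusted p was 0.0666 for Dock5 and 0.0592 for Rala. All 7 rose at both times, and each time has its own controls, which differ in array set. In limma's test between the controls, Rasa1 was lower at 12 h by 0.94 (adjusted p = 0.00153). Rhou, Dock5 and Baiap2 were higher at 12 h, by 3.75, 0.97 and 0.66 (adjusted p = 2.74e-07, 8.69e-05 and 0.0056). Farp1, Rala and Stard13 were not past 0.05 there. The mean Dock5 signal with EGF was 6866.9 at 4 h and 8982.3 at 12 h, though its effect was smaller at 12 h. A difference between the effects thus includes the change between the controls. With 3 arrays a group, single arrays were not checked as outliers.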

How the results depend on the processing

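The direction of all 6 genes at 12 h, and of all but Rapgef5 at 4 h (-0.26 to 0.04), was the same in each of the 24 alternatives that gave a value. With the offset of 96.8 the 4 h differences were 4.23 for Arhgap22, 3.87 for Gem and -2.87 for Arhgef26, and the 12 h ones 3.23 for Gem, -1.80 for Arhgef26 and -5.03 for Rapgef5. A larger offset shrinks differences of dim probe sets by construction. Within 1 array set Arhgef26 gave -2.93 at 4 h, and under median centring Rnd3 gave -1.50 at 4 h. Median centring moved the median of all genes at 4 h to -0.06 and left 40 pathway genes higher and 27 lower at 4 h. Pathway genes whose EGF effect was higher at 12 h than at 4 h numbered 33 with the array set as a block and 31 within 1 set a time, and 9 to 26 with 1 array left out. Those whose effect was lower numbered 26, 27 and 7 to 25, and 11 with no intensity trend. The higher count was 9 without control replicate 1 at 12 h or control replicate 2 at 4 h and 26 without EGF replicate 3 at 12 h. The lower count was 7 to 10 without any one of EGF replicates 1 and 2 at 4 h, control replicates 1 and 2 at 4 h or the 12 h controls. With the replicate block, 35 pathway genes rose and 39 fell at 4 h, and 11 had a higher and 14 a lower EGF effect at 12 h than at 4 h. The block changed no call of a named pathway gene at 4 h or at 12 h, but for the difference between the times it ended those of Dock5 (adjusted p = 0.0666) and Rala (adjusted p = 0.0592). Ralgapa1 at 12 h gave 0.03 (adjusted p = 0.938) as the mean over its probe sets. Between the controls, Arhgap22 ran from -0.07 to 1.26, and the mean over probe sets gave -1.79 for Arhgef26 and -1.14 for Rnd3. The controls could not be compared with a block, since each block lies within 1 time. No detection calls were at hand, so probe sets near the offset carry no measured order. The causes of these shifts, apart from the offset and Ralgapa1, were not tested.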

Other observations

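Some named pathway genes also differed between the 2 controls. Rhou was higher in the 12 h than in the 4 h controls by 3.75 ± 0.23 on the log2 scale (limma, adjusted p = 2.74e-07), with a mean of 4020.5 ± 560.7 at 12 h and 275.7 ± 31.8 at 4 h (SD, n = 3 each). Arhgap18 was higher by 2.63 ± 0.22 (adjusted p = 2.67e-06) and Rhobtb1 by 1.53 ± 0.29 (adjusted p = 0.00105), and Rasl12 was lower, at -2.79 ± 0.48 (adjusted p = 0.000575). Time, experiment and array set differ together between these controls and cannot be told apart.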
